A study of Mus musculus with 16 samples.

Results

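Serpinb2, Scin, Gpnmb and Vat1l are 4 of the 45706 gene IDs counted in 16 RNA sequencing libraries of mouse bone marrow. They were chosen from the measured values, as genes nearly silent in the Day0 libraries and strongly raised in the Day2 libraries of both labels, so their Day0 and Day2 levels are described here without a test. The series concerns GATA2 haploinsufficiency, the loss of 1 of the copies of a zinc finger transcription factor that blood stem cells need, in marrow challenged by transplanting few sorted cells into lethally irradiated WT recipients. The 10 libraries at Day0 and Day2 came from LSK cells, the stem and progenitor fraction of marrow defined by absent lineage markers and by Sca-1 and Kit on the surface. At Day0 there were 2 WT libraries and 3 labelled Gata2, and at Day2 there were 3 WT libraries and 2 labelled Gata2. Week2 was sampled as CD45.2 marrow cells, with 3 libraries for each label. The sources used here name the genotypes only as WT and Gata2, and do not give the allele, the strain, the age or sex of the animals, or how LSK cells were handled from Day0 to Day2. Whether the libraries within each group stem from different animals is not given in the labels, so p-values measure the spread between libraries, which may be technical.

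As background, the products of these genes belong to unrelated families. SERPINB2, also called plasminogen activator inhibitor 2, is a clade B serpin, a suicide-type protease inhibitor that blocks the urokinase and tissue plasminogen activators and is a known product of activated monocytes and macrophages. Scinderin, the product of Scin and also called adseverin, is a calcium-dependent protein of the gelsolin family that severs and caps actin filaments, known from secretory cells, megakaryocytes and osteoclasts. GPNMB is a membrane glycoprotein of lysosomes and melanosomes, related to the pigment protein PMEL, a target of the MiT/TFE transcription factors, and known from osteoclasts and from macrophages with a heavy lysosomal load. VAT1L is a relative of the synaptic vesicle protein VAT1 in the medium-chain oxidoreductase family, and its role in blood cells is not well known.

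On the mm10 build, GENCODE placed Serpinb2 (ENSMUSG00000062345) on the plus strand at chr1:107511423-107535478 and Scin (ENSMUSG00000002565) on the minus strand at chr12:40059769-40134228. Gpnmb (ENSMUSG00000029816) lies on the plus strand at chr6:49036546-49070929, and Vat1l (ENSMUSG00000046844) on the plus strand at chr8:114205612-114374071. All 4 are protein coding. The stretches before their transcription starts, from RefSeq (GRCm38.p6, the same build), are shown because the members, on 4 chromosomes, were all chosen for their rise at Day2. Those of Serpinb2, Scin and Gpnmb are the 250 bases before the RefSeq start. That of Vat1l was kept to the 222 bases before the GENCODE start, which lies upstream of the RefSeq start at position 114205640. In each, capitals mark matches to the motifs searched, and each run is written 5′ to 3′ on the gene's strand.
Serpinb2, chr1:107511173-107511422, plus strand: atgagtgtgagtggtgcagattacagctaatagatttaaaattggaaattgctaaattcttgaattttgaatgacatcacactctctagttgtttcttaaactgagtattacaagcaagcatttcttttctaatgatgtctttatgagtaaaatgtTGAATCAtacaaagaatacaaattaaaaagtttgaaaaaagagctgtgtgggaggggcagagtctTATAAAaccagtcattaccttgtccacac
Scin, chr12:40134229-40134478, minus strand: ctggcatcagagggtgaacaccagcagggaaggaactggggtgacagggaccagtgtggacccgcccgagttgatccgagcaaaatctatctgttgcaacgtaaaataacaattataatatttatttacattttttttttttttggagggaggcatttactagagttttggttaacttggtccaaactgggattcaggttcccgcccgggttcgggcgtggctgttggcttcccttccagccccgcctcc
Gpnmb, chr6:49036268-49036517, plus strand: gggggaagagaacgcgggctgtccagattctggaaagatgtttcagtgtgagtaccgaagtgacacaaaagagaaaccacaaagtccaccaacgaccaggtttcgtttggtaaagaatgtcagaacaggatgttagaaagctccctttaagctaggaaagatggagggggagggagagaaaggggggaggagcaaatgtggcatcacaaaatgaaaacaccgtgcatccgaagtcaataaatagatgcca
Vat1l, chr8:114205390-114205611, plus strand: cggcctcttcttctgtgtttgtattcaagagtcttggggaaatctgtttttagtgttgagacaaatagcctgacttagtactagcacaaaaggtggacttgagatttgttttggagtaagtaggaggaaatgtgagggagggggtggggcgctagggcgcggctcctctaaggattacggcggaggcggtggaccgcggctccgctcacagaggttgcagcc

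The Serpinb2 stretch held the letters TATAAA from 29 to 24 bases before the start, and TGAATCA, a match to the AP-1 letters TGANTCA, from 94 to 88 bases before it. Of 32536 RefSeq promoters of 250 bases, 12.3% held TATAAA and 6.73% held TGANTCA on either strand; the Vat1l stretch is shorter than these windows. These matches did not overlap each other. The stretches of Scin, Gpnmb and Vat1l held neither. No stretch of the 4 held the GATA letters GATAA (in 22.5% of promoters), the E-box letters CACGTG (6.04%) or CATGTG (12.3%), the ETS letters GGAAGT (19.8%), the composite C/EBP and ATF4 letters TGATGNAA (3.4%) or the STAT letters TTCNNNGAA (7.04%), on either strand. Serpinb2 had the lowest G and C content of the 4, 32.4%, against 47.2% for Gpnmb, 49.2% for Scin and 52.7% for Vat1l; the median over all promoters was 52.4%. A match describes letters in the window and no binding was measured.

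The libraries differed in depth, and 1 stood apart. Total counts were 19618830 in Day0_WT replicate 1, 47904658 to 68305582 in the other LSK libraries and 176933583 to 320717267 at Week2. Genes with a count numbered 22150 to 30564 in the Day0 libraries and 19266 to 21944 in the Day2 libraries. Of the 2 library kits used, which library had which is not given, so whether kit and time went together is not known. The part of library making in the Day0 to Day2 differences was not tested. The log2 levels of Day0_WT replicate 1 correlated with those of replicate 2 at r = 0.846 across genes, against 0.982 to 0.993 for the other pairs within an LSK group. Gata2 itself was not lower in the libraries that carry its name: at Day2 it stood at 611 ± 173 CPM (reads counted for a gene, scaled to a common library size; SD, n = 2) in libraries labelled Gata2 and 270 ± 17.6 CPM (n = 3) in WT, so the label is kept as a label throughout. Kit stood at 407 to 708 CPM in all 10 LSK libraries, and Ly6a, which encodes Sca-1, at 54.1 to 69.5 CPM at Day0 and 19.5 to 32.2 CPM at Day2.

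Serpinb2 went from almost no reads to a moderately abundant transcript. At Day0 it had 0 and 5 counts in the WT libraries and 1, 2 and 15 counts in the others. For counting error only, the 0 counts of Day0_WT replicate 1 allow up to 0.139 CPM, the level of 3 counts. At Day2 it had 3327, 4318 and 4065 counts in WT, or 63.1, 87.1 and 80.9 CPM, and 2814 and 1680 counts, or 55.3 and 33 CPM, in the libraries labelled Gata2. Every Day2 library lay far above every Day0 library: the lowest Day2 level was 155-fold the highest Day0 level. The fitted log2 change was 10.12 (SE 0.88) in WT and 8.76 (SE 0.67) in libraries labelled Gata2, in both the highest of the 19162 genes that passed the filter on low counts. The genes were chosen on this contrast, so nothing is read from this rank or from those given below for Gpnmb and Vat1l.

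Scin was the most abundant of the 4 at Day2 and was not silent at Day0. It had 261 counts (5.1 CPM) in Day0_WT replicate 2 and 185, 178 and 201 counts (3.66, 3.51 and 2.84 CPM) in the 3 labelled Gata2. The shallow library that stood apart, Day0_WT replicate 1, had 0 counts, where the levels of the other 4 libraries would give 61.2 to 110 counts. Nearly silent therefore means, for Scin, a level of a few CPM outside that 1 library. At Day2 the levels were 199, 209 and 229 CPM in WT and 249 and 179 CPM in libraries labelled Gata2, and the lowest was 35-fold the highest Day0 level. The fitted log2 change in WT was 6.24 (SE 1.01), and 5.35 (SE 0.29) without Day0_WT replicate 1; in libraries labelled Gata2 it was 6.0 (SE 0.85).

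Gpnmb had counts in every Day0 library, but few: 3 and 4 in WT and 17, 9 and 7 in libraries labelled Gata2, or 0.0781 to 0.336 CPM. At Day2 it reached 21.5, 24.6 and 35.9 CPM in WT and 11.4 and 23.6 CPM in libraries labelled Gata2, from 581 to 1806 counts. The times did not overlap, and the lowest Day2 level was 34-fold the highest Day0 level. The fitted log2 change was 8.03 (SE 0.75) in WT and 6.43 (SE 0.57) in libraries labelled Gata2, ranks 6 and 7 of the 19162 genes.

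Vat1l was the least abundant. Its Day0 counts were 15 and 0 in WT and 4, 2 and 4 in libraries labelled Gata2, so the highest Day0 level, 0.697 CPM, came from Day0_WT replicate 1. At Day2 it had 5.31, 5.3 and 3.1 CPM in WT and 4.64 and 7.32 CPM in libraries labelled Gata2, on 156 to 373 counts. Day2 levels lay above all Day0 levels, the lowest 4.45-fold the highest, and 39.2-fold when Day0_WT replicate 1 was left out. The fitted log2 change was 3.81 (SE 1.25) in WT, rank 114, and 6.62 (SE 1.23), rank 6, in libraries labelled Gata2. Without Day0_WT replicate 1 the remaining WT library had 0 counts, and the Day2_WT mean was at least 78-fold higher than the level of 3 counts in that library.

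**Figure D1:**
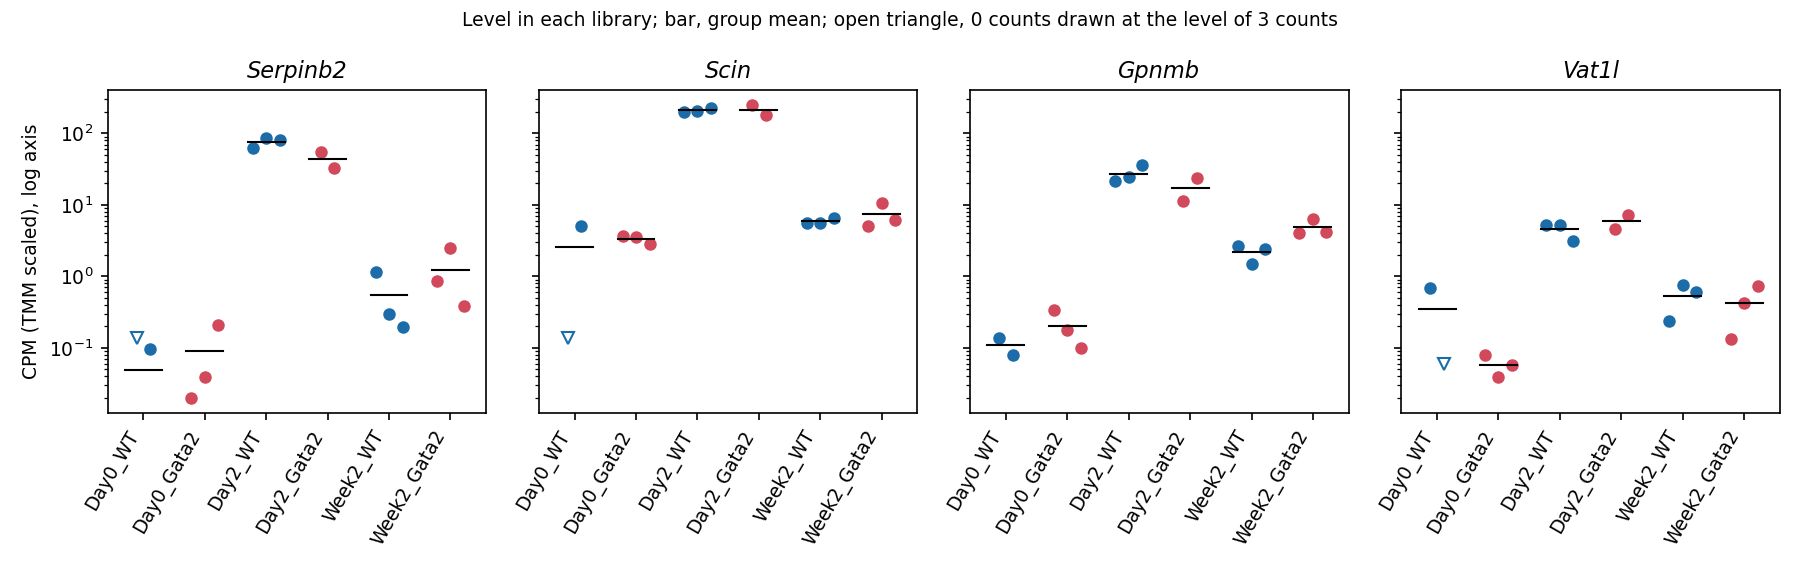
Level of each of the 4 genes in each library, in CPM on a log axis, by group (blue, WT; red, libraries labelled Gata2; bar, group mean; open triangle, a library without a count drawn at the level of 3 counts). The Day2 libraries sit highest in every panel, and the Scin panel shows the 4 Day0 libraries at 2.84 to 5.1 CPM beside the 1 without a count.

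In both labels, the Day2 libraries of all 4 genes lay above the Day0 libraries without overlap; 25.3% of the 19162 genes did so in WT and 25.9% in libraries labelled Gata2, and since the rule used this contrast nothing is read from the count. Leaving out Day0_WT replicate 2, so that replicate 1 stood for the group alone, put the fitted WT changes of Serpinb2, Scin and Vat1l at 14.82, 16.29 and 2.67 on the log2 scale, of which the first 2 are fits against 0 counts and no bounds. LSK libraries are bulk samples, so more cells that make a transcript and more of it per cell cannot be told apart.

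A stricter form of the description was met by few genes, Serpinb2 and Gpnmb among them. Both were chosen on these same levels, so nothing is read from their place in this count. Of the 45706 gene IDs, 5 (0.0109%) were under 1 CPM in every Day0 library and at 10 CPM or more in every Day2 library: Serpinb2, Chac1, Scd1, Gpnmb and Nt5e, in the order of their lowest Day2 level. Serpinb2 led with 33 CPM, followed by Chac1, a glutathione-degrading enzyme induced by amino acid stress, at 15.2 CPM. Gpnmb and Scd1, a fatty acid desaturase, were both at 11.4 CPM and Nt5e, the surface nucleotidase CD73, at 10.8 CPM. Scin fell outside because its Day0 level reached 5.1 CPM, and Vat1l because its lowest Day2 level was 3.1 CPM. By Week2, Scd1 (median 69.5 CPM) and Nt5e (21.1 CPM) stood at or above their lowest Day2 level, while Serpinb2, Chac1 and Gpnmb were below theirs in all 6 libraries.

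**Figure D2:**
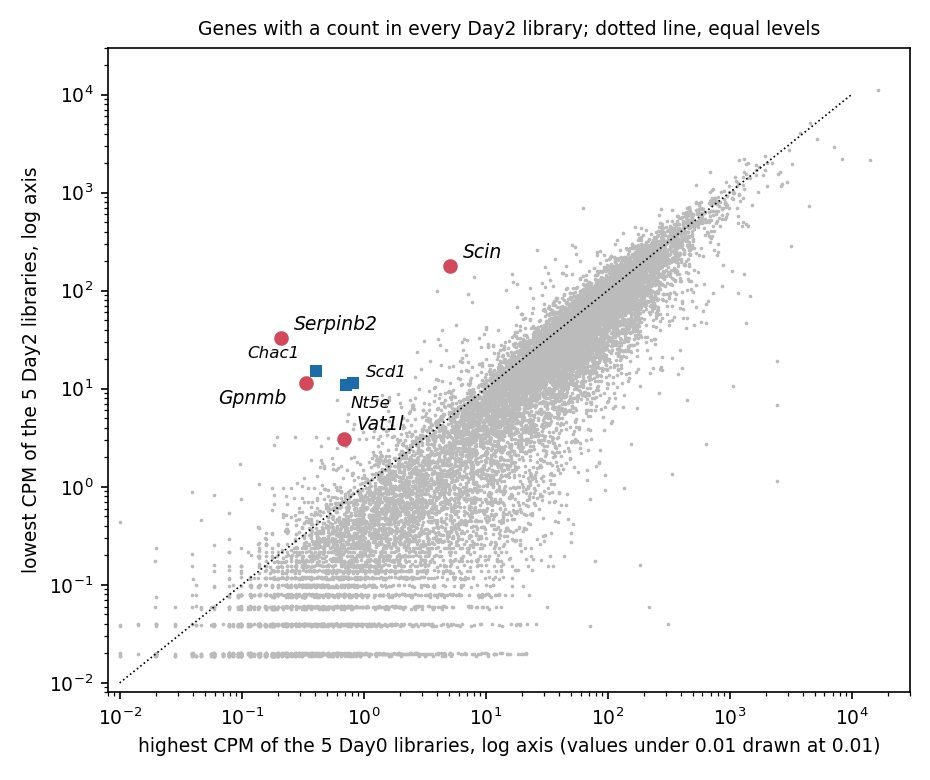
Each grey point is a gene with a count in every Day2 library, at its highest CPM over the 5 Day0 libraries (x) and its lowest CPM over the 5 Day2 libraries (y), both log axes; the dotted line marks equal levels. The 4 genes described here (red) and Chac1, Scd1 and Nt5e (blue squares) lie above the main cloud, with Scin to the right at 5.1 CPM and Vat1l lowest at 3.1 CPM.

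Per kilobase of exon, which allows levels of different genes to be compared, the Day2_WT means were 70.8 CPM per kb for Scin, 32.8 for Serpinb2, 4.2 for Gpnmb and 0.837 for Vat1l. Scin thus stood above Serpinb2, and both above Gpnmb and Vat1l, at the exon lengths of GENCODE (2999, 2349, 6514 and 5462 bases).

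In the CD45.2 marrow at Week2, Scin and Gpnmb lay between their Day0 and Day2 ranges in all 6 libraries and Serpinb2 did in 5 of 6. Serpinb2 stood at 1.15, 0.293 and 0.196 CPM in WT and 0.852, 2.46 and 0.38 CPM in libraries labelled Gata2; its lowest Day2 level was 13.4-fold its highest Week2 level. Scin stood at 5.64, 5.62 and 6.65 CPM in WT and 5.14, 10.8 and 6.14 CPM in libraries labelled Gata2, all above the 5.1 CPM of its highest Day0 library. Serpinb2 and Scin had the widest gaps below Day2, 16.5-fold for Scin by the same measure. Gpnmb came closest to its Day2 level, at 2.65, 1.5 and 2.41 CPM in WT and 4.1, 6.35 and 4.17 CPM in libraries labelled Gata2, and its lowest Day2 level was only 1.8-fold its highest Week2 level. Vat1l ranged from 0.131 to 0.754 CPM over the 6 Week2 libraries and overlapped its Day0 range. Week2 libraries hold another cell population at greater depth, so these distances are between populations as much as times.

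The order of the 6 group means was alike in Serpinb2 and Gpnmb: Day0_WT, Day0_Gata2, Week2_WT, Week2_Gata2, Day2_Gata2 and Day2_WT from lowest to highest. For Serpinb2 the Day0 groups overlapped each other, Day0_Gata2 overlapped Week2_WT and the Week2 groups overlapped, while the Day2 groups did not. For Gpnmb the Day0 groups overlapped, as did the Day2 groups, and the other neighbours in the order were apart. In Scin the Day2 groups stood the other way round with means of 212 ± 15.3 CPM in WT (SD, n = 3) and 214 ± 49.7 CPM in libraries labelled Gata2 (n = 2), which overlapped, as did its Day0 groups and its Week2 groups. In Vat1l, Day0_Gata2 had the lowest mean and Day2_Gata2 the highest; the groups of each time overlapped, and Day0_WT overlapped both Week2 groups.

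At Day2, the comparison of libraries labelled Gata2 with WT addresses whether the Day2 levels differed with the genotype label. Whether the rise from Day0 differed between the labels was not tested. Serpinb2 averaged 44.1 ± 15.8 CPM (SD, n = 2) in libraries labelled Gata2 and 77 ± 12.5 CPM (n = 3) in WT, and the 2 lower libraries were both labelled Gata2. With edgeR's quasi-likelihood test and Benjamini-Hochberg adjustment over 19162 genes the log2 difference was -0.80 (SE 0.50, adjusted p = 0.981), so it did not pass the threshold of 0.05. Groups without overlap were common here, at 21.1% of genes and 11.2% in the lower direction, so the separation of Serpinb2 is not unusual among genes. No gene of the 19162 passed by this test, that is 0%, with 1070 at an unadjusted p under 0.05 and 143 called by DESeq2.

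The other 3 genes overlapped between the labels at Day2. Gpnmb averaged 17.5 ± 8.59 CPM in libraries labelled Gata2 (SD, n = 2) and 27.3 ± 7.61 CPM in WT (n = 3), a log2 difference of -0.64 (SE 0.48, edgeR adjusted p = 1) that went to -0.10 without Day2_Gata2 replicate 1, the library of 11.4 CPM, and to -1.25 without replicate 2. Vat1l averaged 5.98 ± 1.89 and 4.57 ± 1.27 CPM, a log2 difference of 0.39 (SE 0.99, edgeR adjusted p = 1). For Scin the difference was 0.01 (SE 0.73, edgeR adjusted p = 1). Over all alternatives run, including each library left out, the Serpinb2 difference ranged from -1.12 to -0.47 with adjusted p from 0.356 to 1. The standard errors in this fit carry the spread of Day0_WT: with the 5 Day2 libraries alone they were 0.25 for Serpinb2, 0.17 for Scin, 0.35 for Gpnmb and 0.35 for Vat1l, and no adjusted p of the 4 fell below 0.509.

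At Week2, Gpnmb was the gene of the 4 whose labels separated. All 3 libraries labelled Gata2, 4.1 to 6.35 CPM, lay above all 3 of WT, 1.5 to 2.65 CPM; of 36485 genes tested, 1.58% did not overlap and 0.699% did so in the higher direction. The means were 4.87 ± 1.28 and 2.19 ± 0.606 CPM (SD, n = 3 each), and the log2 difference was 1.24 (SE 0.52), with an edgeR quasi-likelihood p of 0.0403 and an adjusted p of 1. It did not pass, as no gene did in this comparison (0% of 36485, with 87 at an unadjusted p under 0.05 and 1 called by DESeq2); over the alternatives the difference ranged from 0.85 to 1.62 with adjusted p from 0.293 to 1. Its direction at Week2, higher in libraries labelled Gata2, was opposite to that at Day2; that contrast itself was not tested.

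The other 3 genes overlapped between the labels at Week2. Serpinb2 differed by 1.25 (SE 1.01, edgeR adjusted p = 1) on the log2 scale, and by 0.09 to 2.71 when single libraries were left out. Scin differed by 0.42 (SE 0.46) and Vat1l by -0.28 (SE 0.77), both with an edgeR adjusted p of 1, and both changed sign with a library left out. Vat1l had 31 to 180 counts at Week2, and the antisense gene inside it, 4933408N05Rik, had 34 to 385. No source used here says that counting used strand, and whether exons of these genes overlap was not checked. How far reads of the antisense gene were counted for Vat1l is therefore not known. Week2_Gata2 replicate 2 was the highest of the 6 for Serpinb2, Scin and Gpnmb, at 2.46, 10.8 and 6.35 CPM. It was also the highest of the 6 in the summed markers of dendritic cells (3147 CPM), T and NK cells (95.6 CPM) and marrow stroma and endothelium (69.6 CPM), and the lowest in those of monocytes and macrophages (4836 CPM). The part of cell makeup in these values was not tested.

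The molecular setting of each gene was taken from lists of its pathway and family, tested over time with edgeR's quasi-likelihood test. Among the 19162 genes, 29.9% changed in WT (11.9% higher and 17.9% lower at Day2) and 9.3% in libraries labelled Gata2 (4.48% higher and 4.82% lower), and the median log2 change was -0.11 and -0.07. No gene of any list passed in either genotype comparison. The number of genes called over time moved widely with the fit. With only the 2 groups compared it was 1199 of 17619 genes in WT and 5676 of 17806 in libraries labelled Gata2. Leaving out either Day0_WT library left 1 library in that group. List counts under other fits are given below, and nothing is read from them about a list beyond such totals.

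The targets of SERPINB2 were scarce, and another inhibitor gene was higher at Day2. Of 9 tested members of the plasminogen activation system, 2 rose and 1 fell in WT and 1 rose in libraries labelled Gata2, with median log2 changes of 0.08 and -0.42. The gene that rose in both was Serpine2, which encodes protease nexin 1, another inhibitor of plasminogen activators: it went from 14.7 to 18 CPM at Day0 to 116 to 157 CPM at Day2, a log2 change of 2.95 (SE 0.20, edgeR adjusted p = 6.08e-05) in WT and 3.02 (SE 0.18, edgeR adjusted p = 3.86e-05) in libraries labelled Gata2. Of the activators, Plau, the urokinase gene, stood at most at 0.477 CPM and Plat, the tissue activator gene, at most at 0.0392 CPM at Day2. Plaur, the urokinase receptor gene, stood at 16.5 to 30.5 CPM at Day2 and did not pass (log2 change 0.26 in WT, edgeR adjusted p = 0.479). In WT, Anxa2, a plasminogen-binding surface annexin, rose by 1.26 and Plgrkt, a plasminogen receptor, fell by 1.34 on the log2 scale. Serpine2 stayed called in both labels under every other setting run and with any 1 of the 10 libraries left out. With only the 2 groups compared in the fit, 1 of the list was called in WT and 3 in the other label, and without a low count filter 5 and 2. DESeq2 also called 2 in libraries labelled Gata2. Without Day0_WT replicate 1 or replicate 2, the list had 1 higher and 2 lower in libraries labelled Gata2.

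Of the 20 other clade B serpins, 7 could be tested, and 2 rose and 1 fell in WT and 1 rose in libraries labelled Gata2, with median log2 changes of 0.70 and 0.36. The strongest riser was Serpinb10, whose annotated gene starts 17.6 kb downstream of the Serpinb2 start on the same strand and overlaps its end. It rose by 5.59 (SE 0.94, edgeR adjusted p = 0.00317) in WT and by 3.96 (SE 0.72, edgeR adjusted p = 0.00902) in libraries labelled Gata2, from at most 3 counts at Day0 to 42 to 75 counts at Day2. Its Day2 counts were 1.53 to 2.5% of those of Serpinb2, while at Week2 they were 9.62 to 467%. Whether exons of these genes overlap was not checked. Reads of any shared exon cannot be assigned to 1 of the genes with certainty, so the Serpinb10 value is uncertain. In WT, Serpinb1a, an inhibitor of neutrophil proteases, rose by 0.70 and Serpinb9b fell by 7.79 on the log2 scale; Serpinb8, 78.6 kb from Serpinb2, had log2 changes of 1.88 and 0.99 that did not pass. In WT the call of Serpinb10 held with any 1 of the 10 libraries left out; in the other label it was lost without Day0_Gata2 replicate 2, Day0_Gata2 replicate 3 or Day2_Gata2 replicate 1. With only the 2 groups compared in the fit, none of the family was called in WT by edgeR and 3 were in libraries labelled Gata2. Under the replicate block the Serpinb10 call in the latter was lost, leaving none there. The fall of Serpinb9b was lost under the block and without Day0_WT replicate 1, Day0_Gata2 replicate 1 or 3, or Day2_WT replicate 2 or 3. Without Day0_WT replicate 2, 6 of the family were called in WT and 2 in libraries labelled Gata2, and 3 in the latter without Day0_WT replicate 1.

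Of 7 other gelsolin and villin family genes, 3 rose and 1 fell in WT and 1 rose and 1 fell in libraries labelled Gata2, with median log2 changes of 0.68 and 0.05. Gsn, which encodes gelsolin, the closest relative in the list, stood at 40.2 to 55 CPM at Day0 and 63.9 to 141 CPM at Day2; it rose by 1.23 (SE 0.22, edgeR adjusted p = 0.00406) in WT, and its value of 0.49 in libraries labelled Gata2 did not pass. At Week2 Gsn stood at 392 to 915 CPM, above its Day2 levels, whereas Scin stood below its own. Both genes were lowest at Day0. Svil, the membrane-linked supervillin, rose by 0.87 in WT and 0.81 in libraries labelled Gata2, and Vill, a villin-like gene, fell by 1.06 and 0.97. The WT calls of Gsn and Svil held with any 1 library left out, and that of Vill was lost without Day2_WT replicate 2, when 2 of the family were called; 6 were called without Day0_WT replicate 2. In libraries labelled Gata2 none was called when any 1 of them, or Day2_WT replicate 2, was left out, and 1 without Day2_WT replicate 1 or replicate 3. With only the 2 groups compared in the fit, none of the family was called in WT by edgeR and 3 were in libraries labelled Gata2; with all 16 libraries in 1 fit, only Gsn was called in WT and none in the other label. Under the replicate block none was called in libraries labelled Gata2, and without a low count filter only Vill was.

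Among 13 genes of actin turnover, 7 rose and 1 fell in WT and 2 rose and 1 fell in libraries labelled Gata2, with median log2 changes of 0.61 and 0.56. Dstn, which encodes the actin-depolymerising protein destrin, rose by 1.01 (edgeR adjusted p = 0.00828) and 0.98 (edgeR adjusted p = 0.0156), and Capza1, a subunit of the filament capping protein, by 0.92 and 0.79. The gene that fell in both was Tmsb10, which encodes an actin monomer-binding thymosin, by 0.90 and 1.11. Without Day0_WT replicate 1, 5 were called in WT and 7 in libraries labelled Gata2; without Day0_WT replicate 2, 5 were called in libraries labelled Gata2. Leaving out Day2_WT replicate 2 or replicate 3 gave 5 in WT; leaving out a library labelled Gata2 gave 0 (Day2 replicate 1) or 1 (each of the others) in that label. With only the 2 groups compared in the fit, 1 was called in WT and 6 in libraries labelled Gata2, and with all 16 libraries in 1 fit 4 and 1. DESeq2 called 7 in libraries labelled Gata2. The WT call of Dstn was lost in both of these edgeR fits, and in the other label those of Dstn and Capza1 with all 16 libraries and that of Capza1 without a low count filter.

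Of 24 tested MiT/TFE factors and lysosome genes, 11 rose and 0 fell in WT and 7 rose and 0 fell in libraries labelled Gata2 by edgeR, with median log2 changes of 0.75 and 0.22; 13 and 17 did not pass. Cd63, a tetraspanin of late endosomes, rose by 1.48 (SE 0.21, edgeR adjusted p = 0.00144) and 1.19 (SE 0.19, edgeR adjusted p = 0.00597). Lamp1, a lysosomal membrane protein gene, rose by 1.41 and 0.96, from 172 to 305 CPM at Day0 to 508 to 593 CPM at Day2. Ctsd, the gene of the protease cathepsin D, rose by 1.38 and 0.67, and Atp6v1h, a subunit of the proton pump, by 1.12 and 0.91. Among the factors, Tfe3 rose in WT by 0.76 (edgeR adjusted p = 0.0145), while Mitf stood at 3.51 to 5.15 CPM at Day2 and did not pass (-0.56 in WT, edgeR adjusted p = 0.277). The WT calls of Cd63, Lamp1, Ctsd and Atp6v1h held with any 1 library left out, and that of Tfe3 was lost without Day2_Gata2 replicate 1. Without Day0_WT replicate 2 the WT count was 14 higher and 4 lower; in libraries labelled Gata2 the count was 0 without Day2_Gata2 replicate 1, 3 without Day2_Gata2 replicate 2 or Day0_Gata2 replicate 2, and 4 without Day0_Gata2 replicate 1 or replicate 3. Ctsd in that label was called in 2 of the 10 fits with 1 library left out. The WT count was 5 with only the 2 groups compared in the fit, and the other label had 3 without a low count filter, 4 under the replicate block and 2 with all 16 libraries in 1 fit. The WT calls of Cd63, Lamp1, Ctsd and Atp6v1h held under these, and that of Tfe3 was lost in all 4.

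Of 5 tested relatives and partners of GPNMB, 2 rose in WT and 1 in libraries labelled Gata2. Itgb1, the gene of integrin beta 1, rose by 0.83 (edgeR adjusted p = 0.00315) and 0.60 (edgeR adjusted p = 0.0218), and Adam10, the gene of a protease that sheds membrane proteins, by 1.67 in WT. Pmel, the closest relative of Gpnmb, stood at 0.197 to 1.73 CPM at Day2 and did not pass in either label. Tyr, Tyrp1, Dct and Mlana, which mark pigment cells, summed to at most 0.0569 CPM at Day2. In libraries labelled Gata2 none of the 5 was called when Day2_Gata2 replicate 1 or any Day0_Gata2 library was left out, 3 were without Day0_WT replicate 1 and 2 without Day0_WT replicate 2. In that label none was called without a low count filter, under the replicate block or with all 16 libraries in 1 fit, and 2 were with only the 2 groups compared.

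Vat1, the closest relative of Vat1l, was lower at Day2 in WT. Vat1 stood at 11.7 to 16.8 CPM at Day0 and 6.92 to 13.5 CPM at Day2, a log2 change of -1.05 (SE 0.31, edgeR adjusted p = 0.0303) in WT and -0.24 (SE 0.31, edgeR adjusted p = 0.702) in libraries labelled Gata2. Of 8 oxidoreductase relatives tested, Zadh2 rose in WT by 1.23 (edgeR adjusted p = 0.0157), and none passed in libraries labelled Gata2 by edgeR. The call of Vat1 held in 3 of the 10 fits with 1 library left out, those without Day0_WT replicate 2 or either Day2_Gata2 library, and its change stayed between -1.14 and -0.97 throughout; Zadh2 stayed called in all 10. Without Day0_WT replicate 2, 5 of the list were called in WT, and 1 without any single Day0_Gata2 or Day2_WT library. The call of Vat1 was also lost under the replicate block, with all 16 libraries in 1 fit and with only the 2 groups compared, where Zadh2 was lost too.

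**Figure D3:**
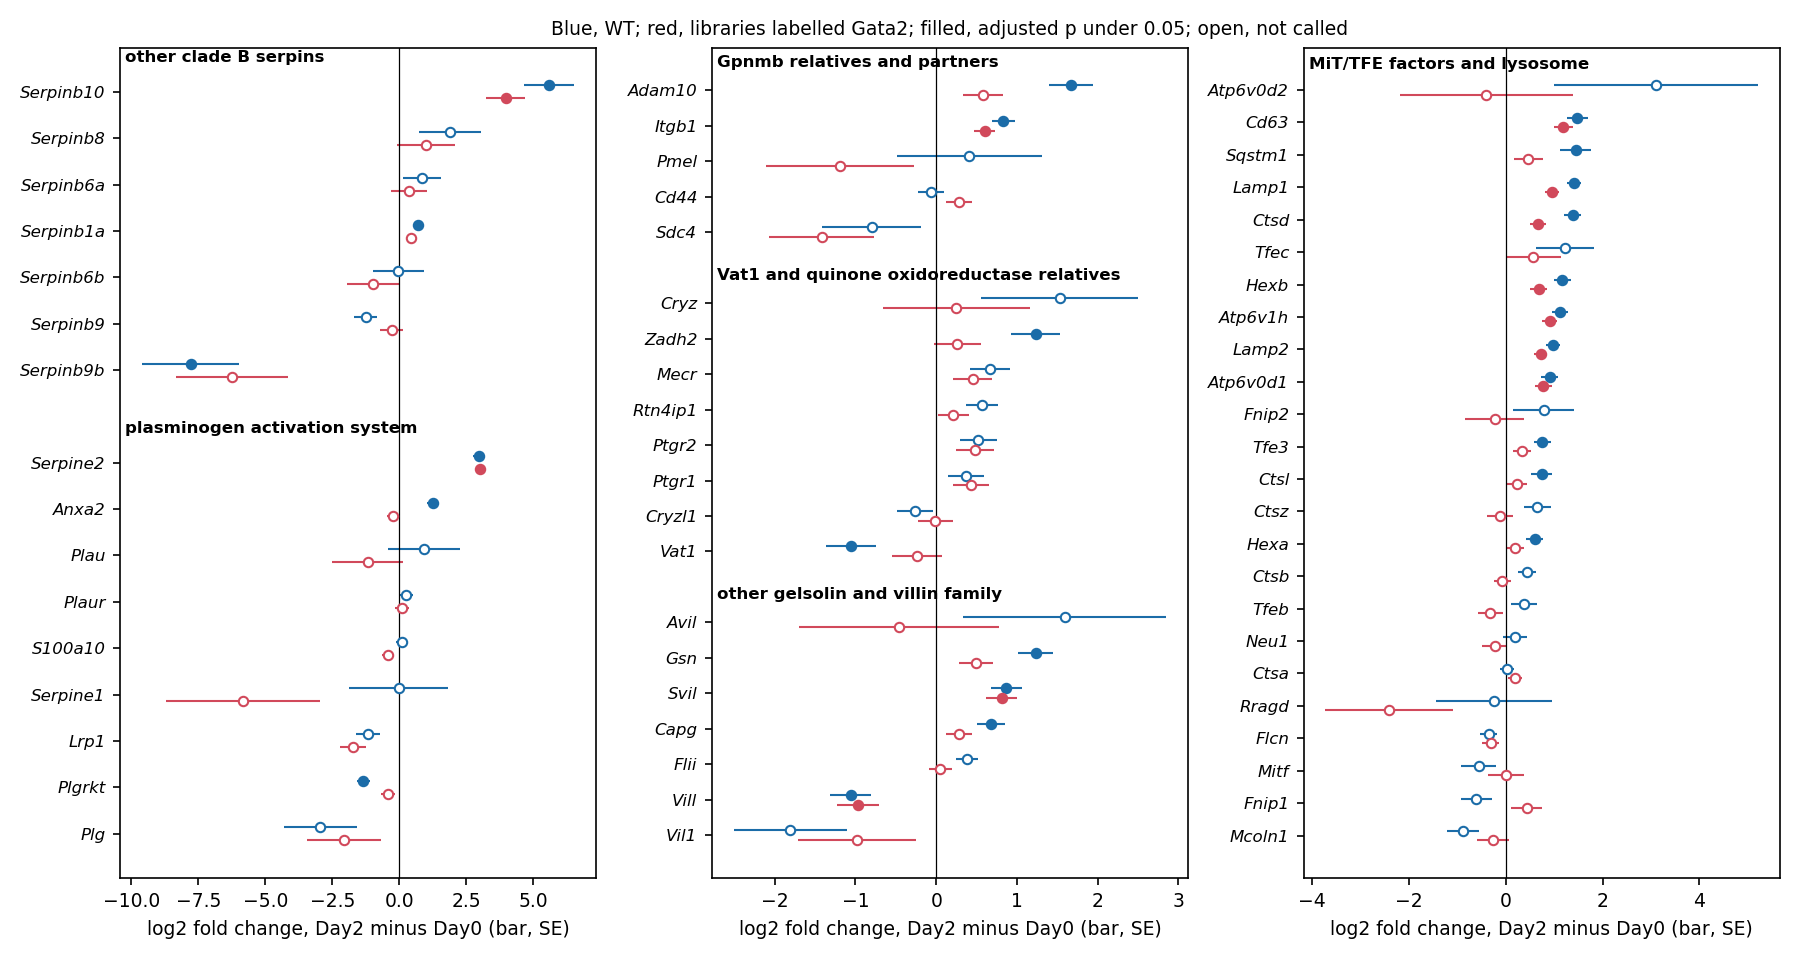
Log2 change from Day0 to Day2 (x, bar SE) of the tested genes of 6 lists of families and pathways around the 4 genes (blue, WT; red, libraries labelled Gata2; filled, edgeR adjusted p under 0.05; open, not called). Serpinb10 and Serpine2 lie far to the right in the first panel at 5.59 and 2.95 in WT, and the called genes of the lysosome panel all lie to the right of 0.

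Of 12 tested neighbours on the chromosome over the 4 genes, 3 were higher and 1 lower in WT and 1 was higher in libraries labelled Gata2, near the shares over all genes (29.9% and 9.3%). Within 250 kb of the Serpinb2 start, 2 of 6 neighbours could be tested and Serpinb10, annotated as a polymorphic pseudogene, was the one called; the others listed are protein coding. Neither tested neighbour of Scin passed, Ifrd1 or Arl4a. Of 6 tested neighbours of Gpnmb, Malsu1, a mitochondrial ribosome assembly gene 37.2 kb away, rose by 0.81 in WT (SE 0.27, edgeR adjusted p = 0.05 after rounding). Both tested neighbours of Vat1l moved in WT, Nudt7 by 0.81 and Wwox by -0.85 (edgeR adjusted p = 0.0438 for each), and neither was called in libraries labelled Gata2. The calls of Malsu1 and Nudt7 held in 1 of the 6 other settings without a library left out, and that of Wwox in 4. Of all tested neighbours, Serpinb10 had the largest change. An antisense gene within Vat1l, 4933408N05Rik, had 0 to 9 counts at Day2, where Vat1l had 156 to 373.

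**Figure D4:**
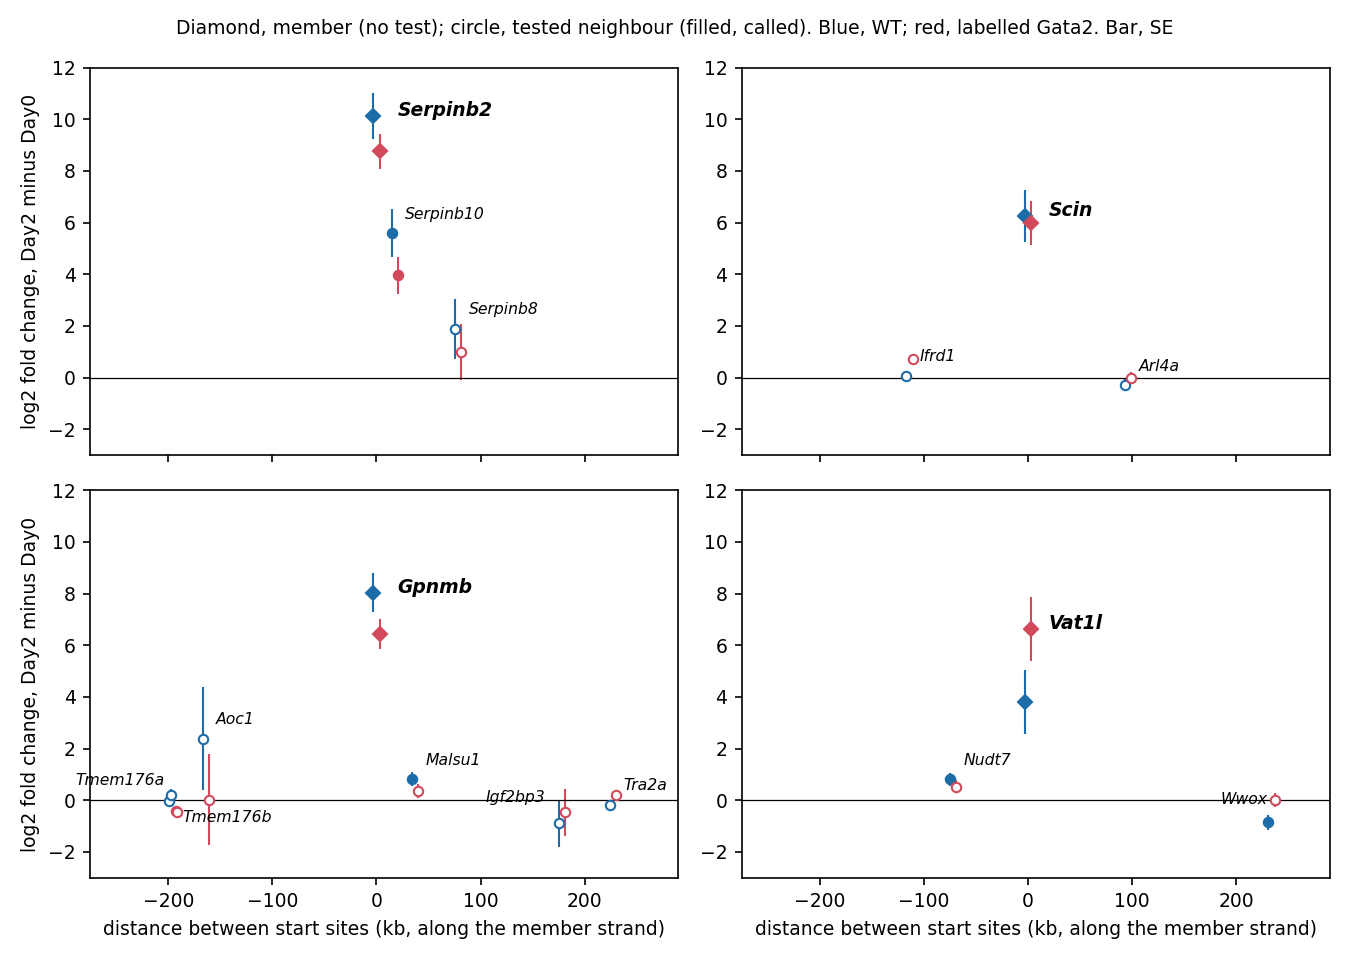
Log2 change from Day0 to Day2 (y, bar SE) of each of the 4 genes (diamond) and its tested neighbours (circle; filled, called) against the distance between start sites in kb; blue, WT, and red, libraries labelled Gata2, are set slightly apart sideways. Serpinb10 sits at 17.6 kb with 5.59 and 3.96 and is the neighbour farthest from 0.

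The genes whose log2 levels ran most alike over the 16 libraries were picked by Pearson's r among 10236 genes of 5 CPM or more at Day2; the libraries share their time groups, so r mainly ranks genes by low Day0 and Week2 and high Day2 levels. For Serpinb2 they were Rpl23a-ps3 and Hmgb1-ps3 (r = 0.977 each) and Slc1a4 (r = 0.976), the first 2 pseudogenes whose reads may come from their parent genes. For Scin they were Slc1a4, a neutral amino acid transporter, and Col18a1, a basement membrane collagen (r = 0.972 each), and Serpinb2 (r = 0.971). Slc1a4 stood at 30.8 to 44.9 CPM and Col18a1 at 99.7 to 145 CPM at Day2, both under 5 CPM in every Day0 and Week2 library. For Gpnmb they were Gm15590 (r = 0.959), Gm8730 (r = 0.957) and Mycbp (r = 0.951). For Vat1l they were Pls1, which encodes an actin-bundling plastin (r = 0.978), Mob1b (r = 0.967) and Mrvi1 (r = 0.963); Pls1 went from at most 2.74 CPM at Day0 to 23.8 to 34.7 CPM at Day2. Over the 10 LSK libraries alone other genes came first: Chac1 (r = 0.997) for Serpinb2, Nt5c3 (r = 0.996) for Scin, Igfbp7 (r = 0.994) for Gpnmb and Prdx3 (r = 0.989) for Vat1l. Among the 4 genes, over 16 libraries, r ran from 0.868 for Gpnmb with Vat1l to 0.971 for Serpinb2 with Scin. The 4 genes were chosen for low Day0 and high Day2 levels, so nothing is read from these values.

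Markers of other cell types differed over the same interval in both directions. The summed level of 7 megakaryocyte and platelet markers was 212 to 391 CPM at Day0, 1726 to 2375 CPM at Day2 and 16.2 to 30.9 CPM at Week2, and 6 of the 7 rose in each label by edgeR (7 in each without either Day0_WT library, and in libraries labelled Gata2 4 and 5 without Day2_Gata2 replicate 1 and replicate 2). Of these, Pf4, platelet factor 4, rose by 4.31 and 4.42 on the log2 scale. This list, like the 4 genes, was highest at Day2. Of 15 monocyte and macrophage markers, 2 rose and 1 fell in WT and 1 rose in libraries labelled Gata2. When any single Day0_Gata2 library was left out, 1 rose and 1 fell in WT, and the rise of Cd14 was lost. More were called in WT without Day0_WT replicate 2, and in the other label without either Day0_WT library, with 1 library left in that group. The sum of the list went from 580 to 1567 CPM at Day0 to 1337 to 2266 CPM at Day2 and 4836 to 16866 CPM at Week2, where Serpinb2 and Gpnmb were below Day2. Of 7 osteoclast markers, Itgb3, an integrin that platelets also carry, rose and Acp5, the tartrate-resistant acid phosphatase of osteoclasts, fell in both labels by edgeR; the sum of the list was 22.1 to 41.4 CPM at Day0, 125 to 329 CPM at Day2 and 616 to 3721 CPM at Week2, and Calcr had no count at Day2. Without Day2_Gata2 replicate 1 the call of Itgb3 was lost in its label, and without replicate 2 that of Acp5. Of 11 neutrophil granule markers, 7 rose in WT and 3 in libraries labelled Gata2, and the latter count was 6 without either Day0_WT library and 1 without Day0_Gata2 replicate 1, Day0_Gata2 replicate 2 or Day2_Gata2 replicate 2. The neutrophil granule markers summed to 1734 to 7112 CPM at Day0 and 5660 to 8583 CPM at Day2, which overlapped. The summed mast cell and basophil markers were lower at Day2, 143 to 221 CPM against 328 to 668 CPM at Day0, and Mcpt4 had no count at Day2. Erythroid markers summed to 103 to 211 CPM at Day0 and 12.5 to 20.9 CPM at Day2, and 6 of 7 fell in WT and 4 in libraries labelled Gata2 by edgeR (4 in WT without Day2_WT replicate 3, and 2 in the other label without Day2_Gata2 replicate 1). Summed eosinophil markers overlapped between Day0 and Day2. The sums for T and NK cells, B cells and dendritic cells were lower in every Day2 library than in every Day0 library. So were those for LSK and stem cells and for marrow stroma and endothelium. By edgeR, 1 of 9 dendritic cell markers rose and 2 fell in WT, and 2 rose and 4 fell in the other label. Of 8 marrow stroma and endothelium markers, 1 rose and 3 fell in WT and 1 fell in the other label. Of 10 LSK and stem cell markers, 4 fell in WT and 3 in the other label. The WT rises, of Siglech and Kdr, held in 3 and 2 of the 6 other settings without a library left out. Both were lost in WT when any single Day0_Gata2 or Day2_WT library was left out. So were the WT falls of the stroma markers Col1a1 and Pdgfra, while that of Cxcl12 held. In libraries labelled Gata2, 1 dendritic cell marker rose and 2 fell without Day0_Gata2 replicate 1. T and NK cell markers went from 7.34 to 15.2 CPM at Day0 to 0.758 to 1.45 CPM at Day2, and B cell markers from 55.8 to 128 CPM to 18.3 to 30.2 CPM. The median sum of dendritic cell markers was 402 CPM at Day0 and 219 CPM at Day2. LSK and stem cell markers went from 2045 to 2633 CPM at Day0 to 1610 to 1785 CPM at Day2, and those of marrow stroma and endothelium from 68 to 127 CPM to 43.7 to 62.5 CPM. The part of any of these cells in the rise of the 4 genes was not tested.

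**Figure D5:**
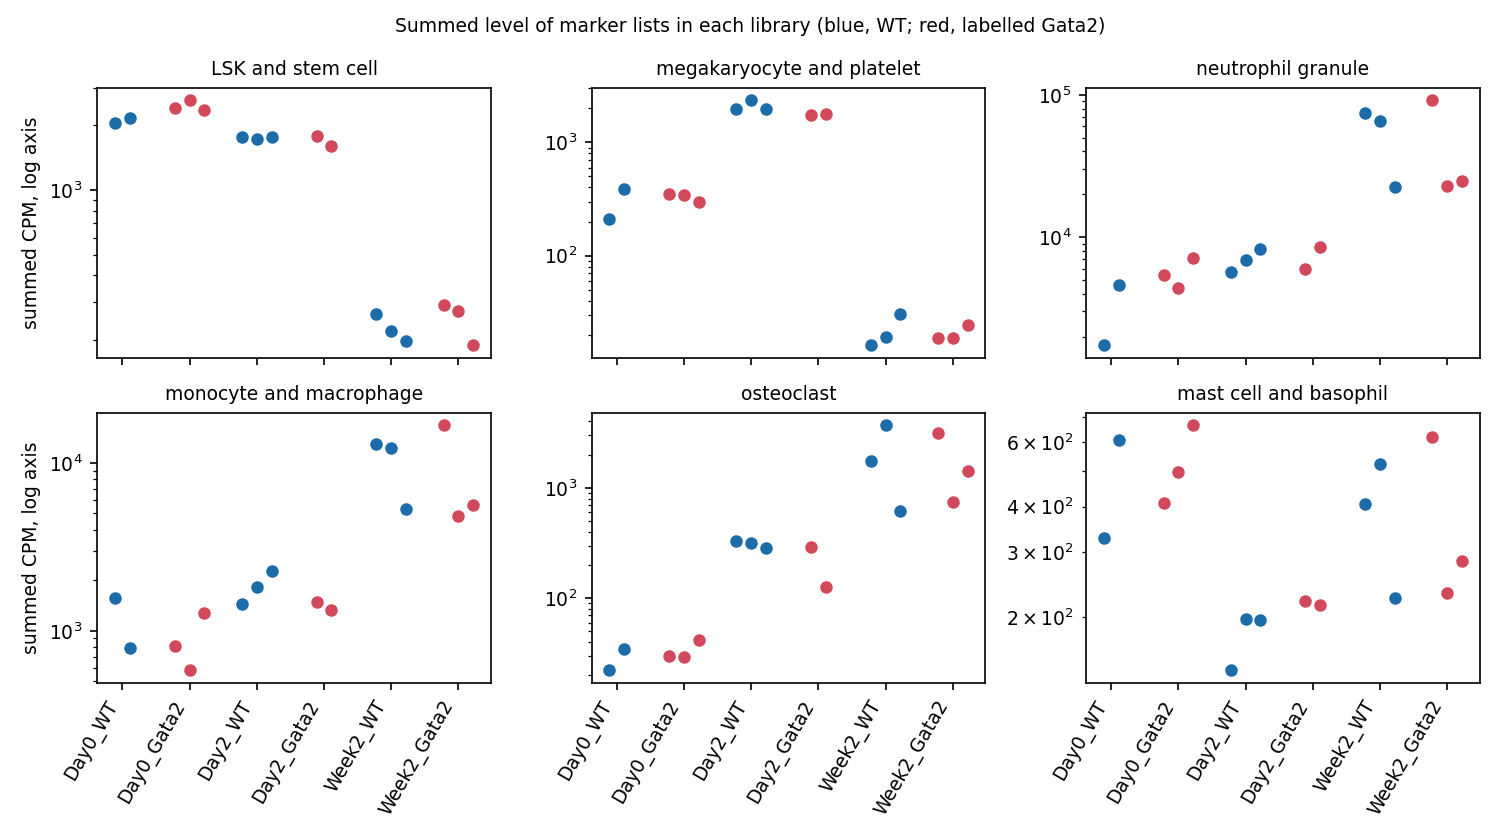
Summed CPM of 6 marker lists in each library (y, log axis), by group; blue, WT; red, libraries labelled Gata2. The megakaryocyte and platelet list is highest at Day2, 1726 to 2375 CPM, whereas the monocyte and macrophage, osteoclast and neutrophil granule lists are highest at Week2.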

How the data were processed

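The authors deposited 1 table of raw read counts per Ensembl gene ID for 16 libraries, whose columns were matched to samples by name. Per the submitters' processing notes, the tools were Trimmomatic 0.38 and STAR 2.5.2b and the build was mm10. How reads were counted, with which strand setting and annotation, is not given in the sources used here. Per the labels' protocols, 2 kits were used, TruSeq Stranded and SMARTer Ultra Low; which library had which is not given.

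Here, symbols, coordinates and exon lengths came from GENCODE M21, and promoters from RefSeq (GRCm38.p6); all 4 genes matched. The test was that of edgeR 4.0.16 on the deposited counts (R 4.3.3, TMM scaling, filterByExpr, robust quasi-likelihood test, Benjamini-Hochberg adjustment over all genes tested, threshold 0.05): the 10 LSK libraries as 4 groups, and the 6 Week2 libraries alone. All 4 genes passed the filter in both fits. Levels are CPM with TMM scaling over 16 libraries; a level of 3 counts served as the floor. The procedure was also run on simulated counts, in which no library was made to stand apart as Day0_WT replicate 1 does. Nothing reported here rests on that run. The 4 genes and the 20 lists (197 genes, all matched) were chosen with earlier results of these data known. Named were the 4 genes, the called list members of lowest p (up to 4 per list and comparison), their closest relatives, the 3 genes most alike (log2 of CPM plus 1), coding genes starting within 250 kb and Serpinb10, which overlaps Serpinb2, and genes under 1 CPM at Day0 and at 10 CPM or more at Day2. Marker genes were described by list. Alternatives were RLE scaling, no low count filter, DESeq2 1.42.0, the replicate block, all 16 libraries, the compared groups alone and each library left out; the fitted changes of the 4 genes over time under them were added after the data were seen.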

Additional observations from a re-analysis of the deposited data

How the results depend on the processing

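For the comparison of labels at Day2, 0 genes were called in the reported fit, 22 without a low count filter (6 higher, 16 lower), 143 with DESeq2, 4 with all 16 libraries in 1 fit, 11 with the 2 groups alone, and 0 to 48 with 1 library left out (48 without Day0_WT replicate 1 and 32 without Day0_WT replicate 2). Over time in WT, the 5720 calls became 1199 with the 2 groups alone and 3191 to 12386 with 1 library left out (12386 without Day0_WT replicate 2, 3191 and 3338 without Day2_WT replicate 2 and replicate 3); in libraries labelled Gata2, 1782 became 3429 with DESeq2, 5676 with the 2 groups alone and 499 to 4863 with 1 library left out (4863 without Day0_WT replicate 1 and 499 without Day2_Gata2 replicate 1). At Week2, DESeq2 called 1 gene, and leaving out 1 library gave 0 to 4 (4 without Week2_Gata2 replicate 3). Among calls over time the split of higher against lower also moved: 2286 and 3434 in WT became 1358 and 4834 without the filter and 1797 and 4617 with all 16 libraries, and 858 and 924 in libraries labelled Gata2 became 349 and 1146, and 371 and 842. Genes under 0.5 CPM at Day0 and at 10 CPM or more at Day2 numbered 3, not 5. With 1 library left out, the Scin difference at Day2 ranged from -0.14 to 0.24 (-0.14 without Day2_Gata2 replicate 1 and -0.01 without Day2_WT replicate 1), the Scin difference at Week2 from -0.13 to 0.68 (-0.13 without Week2_Gata2 replicate 2), and the Vat1l difference at Week2 from -0.61 to 0.14 (0.01 without Week2_WT replicate 2 and 0.14 without Week2_Gata2 replicate 1). The cause of these shifts was not tested. The other genotype differences of the 4 genes kept their direction under every alternative run, and none passed the threshold.

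The replicate number as a replicate block called 1 gene at Day2, 2747 over time in WT, 745 over time in libraries labelled Gata2 and 12 at Week2. Same-numbered LSK libraries did not deviate together (r from -0.09 to 0.11 across genes). At Week2, r was 0.51, -0.74 and 0.28 for replicates 1, 2 and 3. There the libraries numbered 1 correlated best with each other, but not every library did so with its own number. The numbers are therefore not taken as pairs. No genotype call of the 4 genes changed under the block. With 2 or 3 libraries a group, and 0 to 17 counts at Day0 for 3 of the 4 genes, Day0 levels are known only roughly.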
